A study of Mus musculus with 18 samples.

Results

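The genes described here make or mark the connective tissue of the mouse intestine: 33 symbols of fibroblast markers, collagens and other extracellular matrix proteins. Each symbol was looked up in the platform's gene table, and where it had several probe sets the brightest on average across the 18 arrays stood for it. Of the 33, 31 were measured, out of 19938 genes with a value and 17316 that entered the test, and all 31 passed the filter on low values. Fbn1 had no named probe set, and Loxl2 shared its probe set with another symbol, so neither was used. The rule chose the genes by name and used no measured value, although earlier results of these data were known when the genes were listed.

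RNA was measured on 18 Affymetrix arrays in 6 groups of 3, numbered as in the titles. Control intestinal epithelial cells (replicates 1 to 3) came from Stat3fl/fl mice, whose Stat3 gene is flanked by recombination sites, and deleted ones (4 to 6) from mice labelled Stat3-/-. Control male tumours (7 to 9) and control female tumours (13 to 15) were labelled Stat3fl/fl, which the series text gives as Stat3flox/flox APCmin/+. Deleted male tumours (10 to 12) and deleted female tumours (16 to 18) were labelled Stat3-/-, which the series text gives as Stat3deltaIEC APCmin/+. All tumours therefore carried the APCmin allele. In Stat3deltaIEC mice the Cre recombinase is driven by the Villin promoter, which is active in the intestinal epithelium. Fibroblasts of the deleted mice therefore keep their floxed Stat3 alleles by design. The labels give no age, neither sex nor Apc genotype of the epithelial samples, and nothing that marks samples as separate animals, so p-values measure the spread between these arrays, which may be technical. The sample descriptions speak of carcinogen-induced colorectal tumours, but the series text speaks of APCmin tumours, which arise mostly in the small bowel, and the gut segment of a tumour is not known.

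Fibroblasts build the matrix of the gut wall. They secrete fibrillar collagens, which assemble into fibres under the control of fibril-associated collagens and small proteoglycans and are cross-linked by lysyl oxidases. Epithelium and vessels rest on a basement membrane built from laminins and collagen IV. In tumours, fibroblasts and the matrix they deposit form much of the stroma.

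The Stat3 transcript itself was lower in every deleted group, with log2 differences of -1.96 in epithelial cells, -2.09 in tumours of males and -1.87 in tumours of females. All 6 epithelial arrays had Xist values between 3.92 and 4.46, within or just above the male tumours' 3.81 to 4.20 and far from the female tumours' 9.77 to 10.45. Sex and tissue were therefore mixed when both sexes of tumour were compared with epithelial cells. Control tumours 9 and 15 stood apart from the other 10 tumours in genes that mark gut position. Hoxd13, a hindgut gene, read 8.25 and 9.10 there against 4.82 to 5.59, and Gata4, a gene of the proximal intestine, read 6.92 and 6.84 against 8.86 to 9.86.

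Start-site windows of members that carry the results are shown first, because the series deletes a transcription factor and because these genes include the largest tissue rise (Igfbp5), a collagen I chain (Col1a2), a cytoskeletal marker (Vim) and the member with the largest tissue fall (Fbln1). The sequences are RefSeq's on GRCm38.p6, and 19 of the 31 measured members were in that table. Each line gives the 200 bases upstream of the annotated start, 5′ to 3′ on the gene's strand, with matches to the searched strings in capitals.
Igfbp5, chr1:72874866-72875065, minus strand: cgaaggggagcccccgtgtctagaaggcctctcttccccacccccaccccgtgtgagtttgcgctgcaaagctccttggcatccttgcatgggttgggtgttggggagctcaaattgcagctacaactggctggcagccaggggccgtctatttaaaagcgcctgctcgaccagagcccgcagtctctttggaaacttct
Col1a2, chr6:4505418-4505617, plus strand: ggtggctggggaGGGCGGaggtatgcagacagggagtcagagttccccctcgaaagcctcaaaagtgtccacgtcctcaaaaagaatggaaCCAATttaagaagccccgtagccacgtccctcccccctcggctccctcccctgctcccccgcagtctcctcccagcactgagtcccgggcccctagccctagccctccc
Vim, chr2:13574111-13574310, plus strand: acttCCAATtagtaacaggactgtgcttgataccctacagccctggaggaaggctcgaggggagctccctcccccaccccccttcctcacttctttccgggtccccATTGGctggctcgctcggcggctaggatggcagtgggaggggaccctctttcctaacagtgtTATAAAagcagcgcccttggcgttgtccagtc
Fbln1, chr15:85205749-85205948, plus strand, first of 2 annotated starts: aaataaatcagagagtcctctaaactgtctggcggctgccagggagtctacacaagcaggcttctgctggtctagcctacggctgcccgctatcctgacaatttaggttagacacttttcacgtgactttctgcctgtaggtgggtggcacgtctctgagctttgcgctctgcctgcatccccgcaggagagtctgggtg

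The strings were searched on both strands from 250 bases before to 50 after each start. The string TTCNNNGAA, the palindrome that STAT dimers can bind, was in 0 of the 19 members' windows and in 8.3% of all 32851 windows of that length. CCAAT was in 6 (Col18a1, Col1a2, Col4a1, Col4a2, Postn and Vim; 37.4% of all windows). TATAAA was in 4 (Col3a1, Postn, Tnc and Vim; 13.6%), and GGGCGG, a GC box, in 11 (35.7%). Each member counted once if any of its annotated windows held the string, whereas each percentage is a share of single windows. In Col1a2 the CCAAT began 109 bases before the start, and in Vim the TATAAA began 32 bases before it. Fbln1 was among the 11 with GGGCGG. Its match 11 bases before a start lay at its other annotated start, not at the one printed above. A match is a run of letters, not a shown binding site, and the absence of one says only that these letters are not in this window.

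The matrix and fibroblast genes were far higher in tumours than in epithelial cells. In control mice 27 of the 31 rose in tumours and 2 fell at an adjusted p under 0.05 in limma, a linear model with moderated statistics. Over all genes 30.4% rose and 35.3% fell, so most genes differed between the tissues. The median difference of the 31 was 2.12 on the log2 scale, with quartiles of 1.35 and 3.89, against -0.08 over all genes tested. In the Stat3-deleted mice 24 rose and 2 fell, with a median of 1.75 against -0.07, where 30.3% of all genes rose and 36.2% fell. The samples compared with tumours were labelled epithelial cells, and no group of whole normal gut wall was measured. A rise here is thus relative to epithelial cells, not to the connective tissue of normal gut. Connective tissue missing from the epithelial samples, more fibroblasts in a tumour and more matrix RNA per fibroblast cannot be told apart in these bulk samples.

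**Figure D1:**
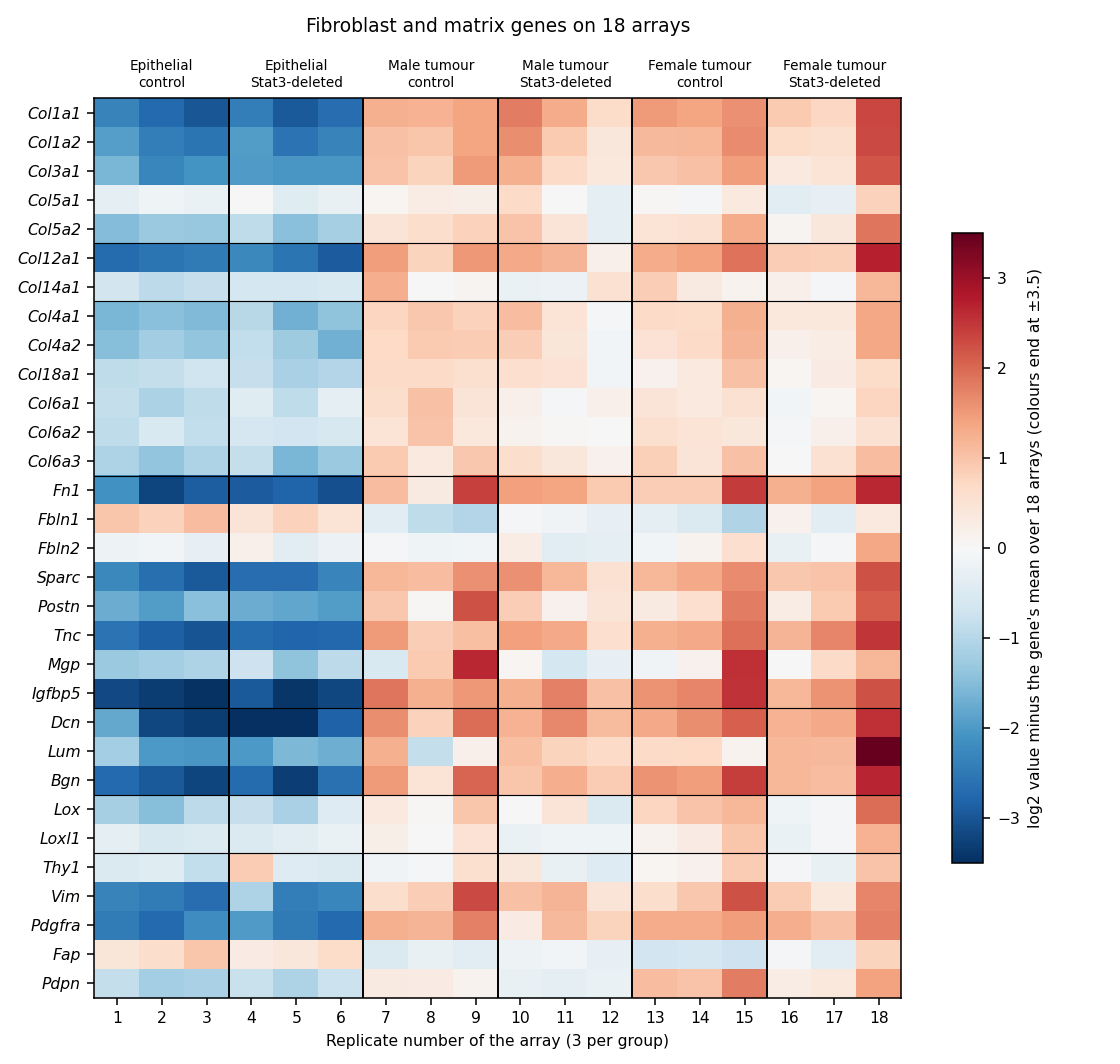
Log2 values of the 31 genes minus each gene's mean over the 18 arrays, in rows by role, with arrays in columns by group and replicate number. Most rows are low in the 6 epithelial arrays and high in the 12 tumours, while Fbln1 and Fap run the other way and replicate 18 holds the highest tumour value for 21 genes.

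Of the fibrillar collagens, which form the load-bearing fibres, 4 of 5 rose in each genotype. Col1a1, a chain of collagen I, read 8.0, 7.6 and 7.34 in control epithelial cells. In control tumours it read 11.58, 11.55 and 11.70 in males and 11.82, 11.71 and 11.92 in females. The control tumours were thus nearly alike and far above the epithelial cells, a difference of 4.07 ± 0.30 (SE), or 16.8-fold (adjusted p = 6.08e-08). In the deleted mice the Col1a1 difference was 3.97, or 15.7-fold, over tumours that spread wider, from 10.98 to 12.65. Col1a2, the other collagen I chain, rose 11.5-fold and 10.3-fold, and Col3a1, which co-assembles with collagen I, rose 8.56-fold and 7.49-fold, in control and deleted mice. Of the collagen V chains, which start fibrils, Col5a2 rose 4.22-fold and 3.34-fold. Col5a1 differed by 0.38 in control mice (95% interval -0.12 to 0.88, adjusted p = 0.164) and by 0.31 in deleted mice (adjusted p = 0.256), below the threshold in both.

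Both fibril-associated collagens rose. Col12a1, which bridges fibrils, read 5.14 to 5.37 in control epithelial cells and 8.61 to 9.75 in control tumours, a rise of 3.97 (15.7-fold, adjusted p = 4.97e-07). Its rise in deleted mice was 3.77, and replicate 18 at 10.57 was its highest array. Col14a1, a related collagen, rose by 1.23 (adjusted p = 0.0019) and by 0.82 (adjusted p = 0.0206).

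The 6 collagens of basement membranes and of beaded microfibrils all rose, by a median of 1.73 in control and 1.52 in deleted mice. Col4a1 and Col4a2 encode the chains of the widespread collagen IV network. Col4a1 read 6.93, 7.05 and 6.97 in control epithelial cells and 9.16 to 9.76 in control tumours, a rise of 2.38 ± 0.25 (SE; 5.2-fold), and Col4a2 rose by 2.17 ± 0.26 (SE; 4.5-fold). Their rises in deleted mice were 1.95 and 1.75. Both genes moved by like amounts. They are transcribed in opposite directions, Col4a2 from 11312805 on the plus strand and Col4a1 from 11312826 on the minus strand. Any link between this layout and the like rises was not tested. The 20 bases between the annotated starts lie downstream of both and are shown in capitals on the plus strand.
Col4a1-Col4a2, chr8:11312801-11312830: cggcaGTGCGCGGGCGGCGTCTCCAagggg

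Col18a1, the source of the fragment endostatin, rose by 1.38 and 1.33. The 3 collagen VI chains, which form beaded filaments near cells, rose by 1.51 (Col6a1), 1.31 (Col6a2) and 1.94 (Col6a3) in control mice. In deleted mice they rose by 0.72, 0.74 and 1.71.

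Among the 8 glycoproteins and matricellular proteins, 6 rose and 1 fell in control mice, and 5 rose and 1 fell in deleted mice. Igfbp5, a secreted binding protein of insulin-like growth factors, rose most of the 31 in control mice. It read 5.39, 5.22 and 5.09 in control epithelial cells and 10.42, 9.78 and 10.07 in control tumours of males and 10.12, 10.24 and 11.07 in those of females. No epithelial array came near a tumour, and the rise of 5.05 ± 0.25 (SE), or 33.1-fold (adjusted p = 1.27e-09), ranked 8 of 17316 genes. In deleted mice it was 4.67, or 25.5-fold.

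Tnc, the adhesion-modulating glycoprotein tenascin C, read 5.16, 4.86 and 4.71 in control epithelial cells and 8.60 to 9.67 in control tumours. It rose by 4.14 ± 0.26 (SE) in control and 4.20 in deleted mice. Fn1, fibronectin, a cell-binding glycoprotein, read 7.19, 6.09 and 6.42 against 10.39, 9.61 and 11.70 in control tumours of males and 10.15, 10.16 and 11.75 in those of females. The highest control value of each sex was replicate 9 or 15, and the rise was 16.7-fold in control and 21.7-fold in deleted mice. Sparc, a collagen-binding matricellular protein, rose by 3.94 (15.4-fold) and 3.80 (13.9-fold), and Postn, periostin, by 2.70 (6.48-fold) and 2.63 (6.21-fold).

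Mgp, matrix Gla protein, an inhibitor of calcification, read 5.77, 5.89 and 6.0 in control epithelial cells, and 6.54, 7.98 and 9.70 in control tumours of males and 6.96, 7.23 and 9.63 in those of females. Replicates 9 and 15 were again the highest. It rose by 2.12 ± 0.57 (SE; adjusted p = 0.00466), while in deleted mice the difference was 1.18 (adjusted p = 0.0788). Fbln2, a fibulin of elastic fibres, differed by 0.25 (95% interval -0.34 to 0.83, adjusted p = 0.439) and by 0.23 (adjusted p = 0.472).

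Fbln1, fibulin 1, a glycoprotein of basement membranes and elastic fibres, fell in tumours. It read 10.56, 10.38 and 10.64 in control epithelial cells. In control tumours it read 9.17, 8.68 and 8.54 in males and 9.27, 9.06 and 8.52 in females, every value below every epithelial one. The fall was 1.65 ± 0.19 on the log2 scale (SE; 3.15-fold lower, adjusted p = 5.27e-06). In deleted mice it read 10.01, 10.37 and 10.05 in epithelial cells, 9.49, 9.45 and 9.27 in tumours of males and 9.71, 9.18 and 9.91 in those of females. The groups again did not overlap, and the difference was -0.64 ± 0.19 (SE; 1.56-fold lower, adjusted p = 0.00845).

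The 3 small leucine-rich proteoglycans, which bind collagen and regulate fibril width, all rose. Dcn, decorin, read 7.49, 6.08 and 5.94 in control epithelial cells and 10.09 to 11.36 in control tumours, a rise of 4.34 ± 0.37 (SE; 20.3-fold). In deleted mice it read 5.41, 5.67 and 6.43 against 10.39 to 11.84, a rise of 4.96 (31.1-fold) that ranked 6 of all genes tested. Epithelial replicate 1, at 7.49, was more than 1 log2 unit above the other 5 epithelial arrays. Bgn, biglycan, rose by 4.53 (23.1-fold) and 4.21 (18.5-fold). Lum, lumican, rose by 2.09 ± 0.47 (SE; 4.27-fold) in control mice, whose tumours read 5.29 to 7.35. In deleted mice it rose by 3.17 (8.99-fold), and by 2.75 without replicate 18, which read 9.76 where the other 5 deleted tumours read 6.79 to 7.28. Lum was below the array's 25th percentile in 5 of 6 epithelial arrays, so its epithelial level is near the dim end of the array and the folds are approximate.

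The cross-linking enzymes moved less. Lox, lysyl oxidase, rose by 1.90 (adjusted p = 0.000434) and by 1.08 (adjusted p = 0.0168). Loxl1, its relative in elastic fibres, rose by 0.83 (adjusted p = 0.00925) in control mice and differed by 0.45 (adjusted p = 0.127) in deleted mice.

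Of the 5 cell markers, 4 rose and 1 fell in control mice, and 3 rose and 1 fell in deleted mice. Pdgfra, the receptor for platelet-derived growth factor that marks gut fibroblasts, read 5.61, 5.33 and 5.88 in control epithelial cells and 9.25 to 9.81 in control tumours. That rise of 3.83 ± 0.22 (SE; 14.2-fold) had the smallest standard error of the 10 largest rises in control mice, and in deleted mice it was 3.45 (10.9-fold). Vim, vimentin, an intermediate filament of mesenchymal and immune cells, rose by 3.75 (13.5-fold) and 2.86 (7.25-fold). Epithelial replicate 4, a deleted one, had the highest epithelial Vim at 8.53 and Thy1 at 8.01. The mean of 10 T and NK cell markers was 8.35 on that array and 6.32 to 7.21 on the other 5, and its part in the Vim and Thy1 values was not tested. Thy1, a surface protein of fibroblasts and T cells, rose by 0.84 (adjusted p = 0.0352) in control mice and differed by 0.10 (adjusted p = 0.801) in deleted mice. Pdpn, podoplanin, a surface mucin of fibroblasts and lymphatic vessels, rose by 1.82 and 1.08.

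Fap, the fibroblast activation protease, fell. It read 4.94, 5.13 and 5.48 in control epithelial cells, and 3.99, 4.26 and 4.14 in control tumours of males and 3.84, 3.92 and 3.77 in those of females. The groups did not overlap, and the fall was 1.20 ± 0.19 on the log2 scale (SE; 2.29-fold lower, adjusted p = 8.54e-05). In deleted mice the difference was -0.48 (adjusted p = 0.0375), and replicate 18, at 5.29, lay above all 3 deleted epithelial arrays. Fap was below the array's 25th percentile in 9 of 12 tumours and below the array median in all 18 arrays. Its probe set was thus dim throughout, and its adjusted p rose above 0.05 in deleted mice under 9 alternative settings.

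**Figure D2:**
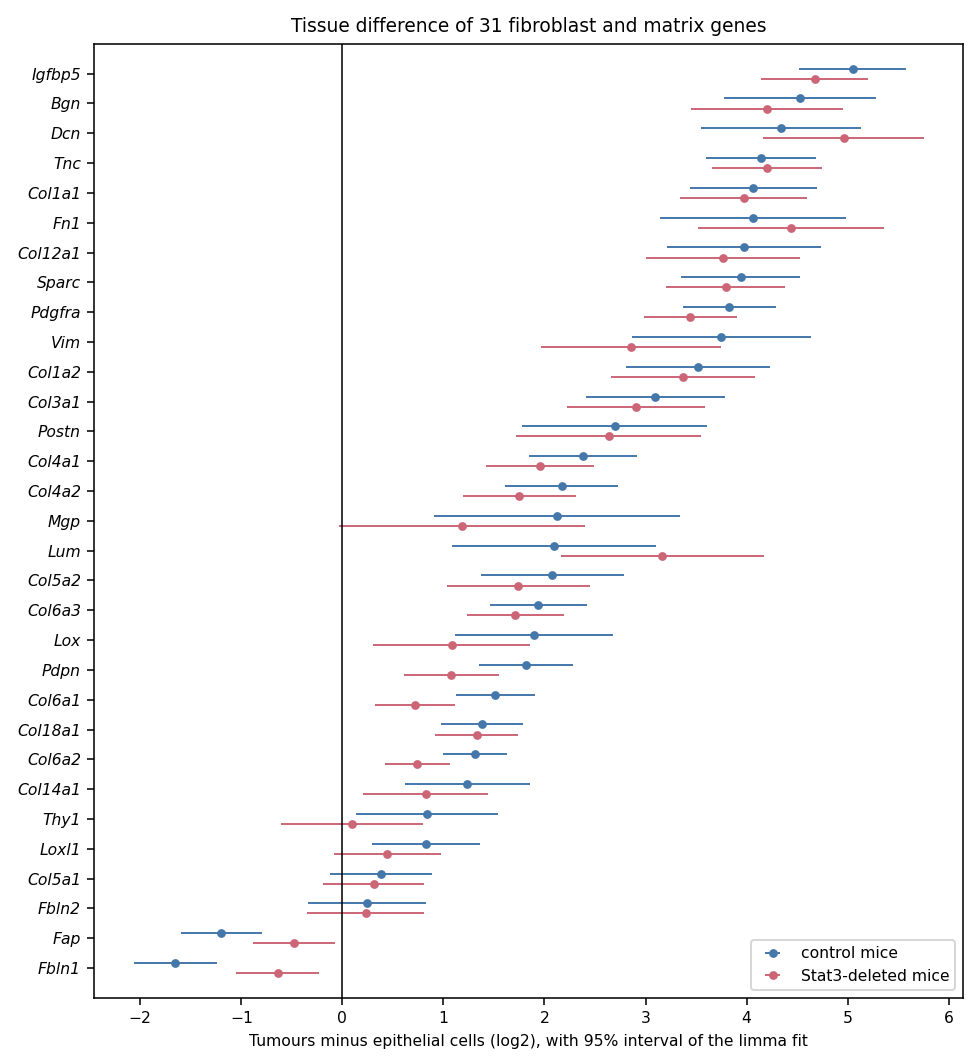
Tumour minus epithelial log2 difference for each of the 31 genes, with the 95% interval of the limma fit, in control mice (blue) and Stat3-deleted mice (red). Values run from 5.05 for Igfbp5 to -1.65 for Fbln1 in control mice, and the intervals of Col5a1 and Fbln2 cross 0 in both genotypes.

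Across single arrays, 28 genes lay entirely higher and 2 entirely lower in control tumours than in control epithelial cells, where 24.8% and 26.3% of all genes did so. In deleted mice the counts were 24 and 1, against 27.1% and 28.8%. The genotypes shared 24 genes that rose and 2 that fell, Fbln1 and Fap. Mgp, Loxl1 and Thy1 rose in control mice but missed the threshold in deleted mice, and Col5a1 and Fbln2 passed in neither. The tissue difference was larger in size in control mice for 27 of 31. The test of its change between genotypes is that of the Stat3 effect in tumours minus that in epithelial cells, and passed for 0. That difference in effect was below 0 for 25 of 31 (median -0.23), where 43.5% of all genes lay above 0. Without control tumours 9 and 15, left out after seeing the data, it was below 0 for 19 of 31 (median -0.05). With male tumours only, 26 of the 31 rose and 2 fell in control mice, and 21 rose and 2 fell in deleted mice. Of all 17316 genes, 4488 rose and 4586 fell in control mice in that setting, and 4235 and 5121 in deleted mice. With both sexes these all-gene counts were 5258 and 6115 in control and 5249 and 6265 in deleted mice. Without control tumours 9 and 15, a setting added after seeing the data, the control counts of the 31 were 26 and 2. Over all genes they were 4796 and 5184.

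Markers of other cell types of the gut wall moved with the tissue. Of 10 endothelial markers 10 rose in control tumours, of 10 macrophage markers 9, of 10 smooth muscle markers 7 with 1 lower, and of 5 pericyte markers 4. The mean log2 value over the endothelial markers was 7.32 to 7.84 in tumours against 5.41 to 5.80 in epithelial arrays. Over the macrophage markers it was 6.65 to 8.16 against 5.43 to 5.83. Of 10 T and NK cell markers 0 rose and 3 fell, of 4 enteric glia markers 0 rose and 3 fell, and of 5 mesothelial markers 1 rose and 4 fell. Collagen IV, Vim, Fn1 and Sparc are also made by vessel, muscle or immune cells, and the part of those cells in the values was not tested.

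Other genes of matrix biology, outside the 31, rose less as groups. Of 19 genes that process collagen 8 rose and 2 fell in control tumours (median 0.46), led by Crtap, a part of the prolyl 3-hydroxylase complex, at 2.15 and Plod2, a lysyl hydroxylase, at 2.69. Of 19 further basement membrane genes 12 rose and 4 fell (median 0.73), with the laminin chains Lamb1 at 3.0 and Lamc1 at 2.73 and their linker Nid1 at 2.84. Of 22 TGF-beta pathway genes 13 rose and 1 fell (median 0.75). They included Thbs1, an activator of latent TGF-beta, at 4.64, and the receptors Eng at 2.51 and Tgfbr2 at 2.32. Of 25 matrix receptors 16 rose and 1 fell (median 0.87), led by the hyaluronan receptor Cd44 at 3.57 and the fibronectin-binding integrin chain Itga5 at 2.35. Of 29 other fibroblast genes 18 rose and 3 fell (median 0.71), with Fstl1 at 3.63, Pdgfrb at 2.65 and Cd34 at 2.06 higher and the mesenchymal transcription factor Prrx1 lower, at -1.85. The 31 genes had a median of 2.12.

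The genes varied more between tumours of a group than most genes did. Their median pooled SD within tumour groups was 0.50 on the log2 scale, against 0.22 over all genes and 0.25 for the same genes in epithelial cells, and the SD was larger in tumours than in epithelial cells for 28 of 31. The mean over the 31 genes was 6.40 ± 0.12 (SD, n = 3) in control and 6.46 ± 0.16 in deleted epithelial cells. In tumours it was 8.67 ± 0.26 in control males, 8.41 ± 0.25 in deleted males, 8.80 ± 0.32 in control females and 8.80 ± 0.71 in deleted females. The deleted female group thus had the widest spread.

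Replicate 18 set that spread, with a mean of 9.62 where replicates 16 and 17 had 8.36 and 8.43. It had the highest value of its group for 31 of 31 genes and the highest of all 12 tumours for 21. The median gap between replicate 18 and the mean of 16 and 17 was 1.14 over the 31 genes and 0.0077 over all genes. The largest gaps were 2.51 for Lum, 2.06 for Lox and 1.88 for Col12a1. Control tumours 9 and 15 had means of 8.93 and 9.17, the highest of their groups, and led the 12 tumours for Mgp (9.70 and 9.63) and Vim (11.92 and 11.84). Deleted male replicate 12 had the lowest mean of the tumours, 8.14, and the lowest value for 12 genes.

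Macrophage and epithelial markers also differed on these arrays. The macrophage marker mean was 7.78 in replicate 9, 8.16 in 15 and 8.05 in 18, against 6.65 to 7.26 in the other 9 tumours. The epithelial marker mean was 10.92 in replicates 9 and 15 and 11.41 in 18, with 11.30 in replicate 10 and 11.58 to 11.77 in the other 8. The smooth muscle marker mean did not follow the same arrays. It was 7.57 and 7.62 in replicates 9 and 15 but lowest, 7.39, in replicate 11, highest, 8.78, in replicate 12, and 8.06 to 8.33 in the other 8, replicate 18 among them. Their part in the matrix values was not tested.

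**Figure D3:**
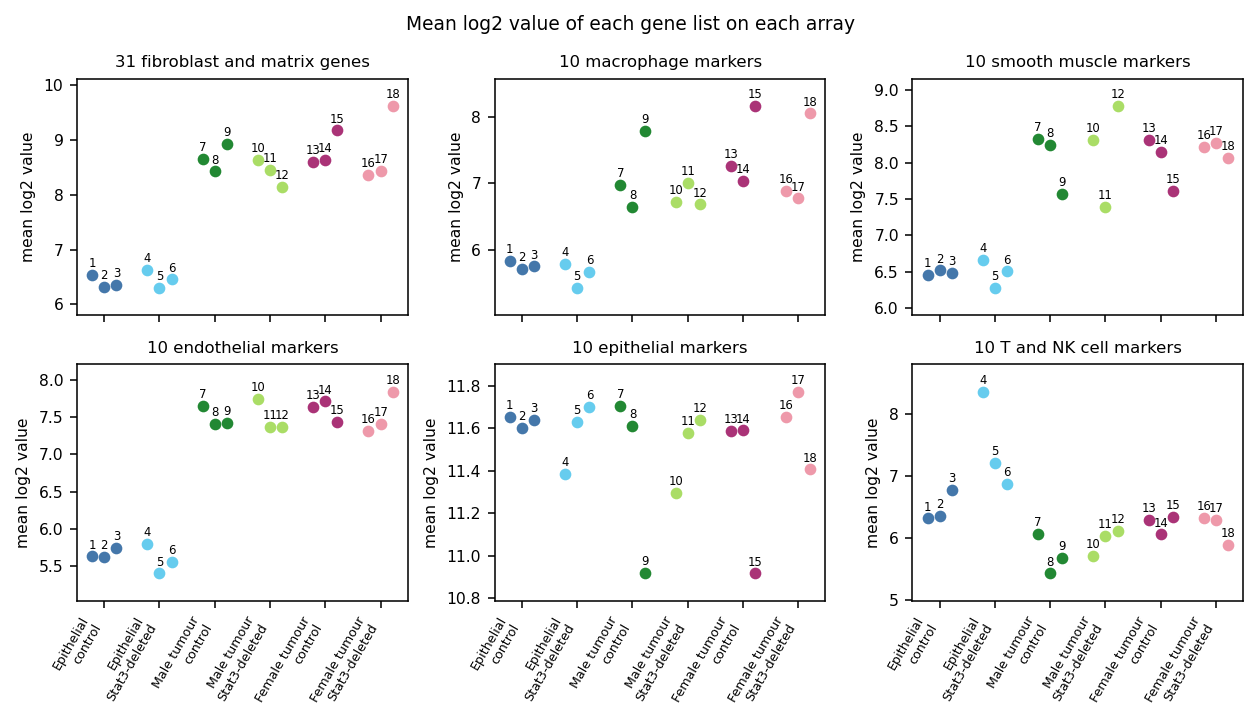
Mean log2 value of the 31 genes and of lists of cell markers on each array, by group, with the replicate number above each point. Replicate 18 has the highest mean of the 31 genes (9.62), and replicates 9, 15 and 18 have the highest macrophage means among tumours.

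The series asks what the loss of Stat3 in the epithelium does to tumours. Tested for Stat3 deletion with limma, 0 of the 31 genes passed in the epithelium, in tumours of males, in those of females, or over both sexes of tumour. Over all genes 0.0231% passed in the epithelium, 0.231% for males, 0.104% for females and 0.71% over both sexes, so few genes passed anywhere. At an unadjusted p under 0.05 there were 0, 4, 4 and 6 of the 31, where 6.8%, 7.52% and 5.03% of all genes and, over both sexes, 2081 of 17316 genes lay under that level.

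The median Stat3 difference of the 31 was 0.06 in the epithelium, -0.31 for male and -0.14 for female tumours, and -0.22 over both sexes. In male tumours 28 of 31 differences were below 0 and 3 above, and in female tumours 20 were below and 11 above. Of all genes, 42.1% lay above 0 in male and 42.2% in female tumours. The median over all genes was -0.04 in each sex. Leaving out single arrays turned the sign of the median in female tumours and in the epithelium, and changed only its size in male tumours and over both sexes. In female tumours the median was -0.49 without replicate 18, with 28 of 31 below 0. It was 0.11 without replicate 15, 0.12 without 16 and 0.13 without 17, with 7, 8 and 9 of 31 below 0. In the epithelium it was -0.017 without replicate 4. In male tumours it was -0.13 without replicate 9 and -0.06 without replicate 12. Over both sexes it ranged from -0.41 without replicate 18 to -0.081 without replicate 9, and was 0.010 with both control tumours 9 and 15 left out. A missed threshold does not show that the genes were alike. The 95% interval lay within 1 log2 unit on either side of 0, a 2-fold change, for 22 of 31 genes in the epithelium, 12 for males, 21 for females and 27 over both sexes.

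Fbln1 had the smallest p over both sexes. Deleted male tumours read 9.49, 9.45 and 9.27, above every control male tumour, and deleted female tumours read 9.71, 9.18 and 9.91 against 9.27, 9.06 and 8.52. The values overlapped in females through replicates 17 and 13. The difference was 0.63 ± 0.16 (SE; 95% interval 0.30 to 0.96, adjusted p = 0.0755), and 0.61 in males and 0.65 in females. It passed without replicate 7 (0.72, adjusted p = 0.0401) or without replicate 17 (0.73, adjusted p = 0.0437), and was 0.46 (adjusted p = 0.245) without control tumours 9 and 15. This comparison uses the same control tumours as the tissue comparison above.

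Col6a2 read 8.32, 8.82 and 8.21 in control and 7.95, 7.87 and 7.84 in deleted male tumours, and 8.38, 8.31 and 8.24 against 7.77, 8.01 and 8.36 in females. The male groups did not overlap, and replicate 18 overlapped the controls in females. The difference over both sexes was -0.41 ± 0.12 (SE; adjusted p = 0.148). Without tumours 9, 15 and 18, a setting added after seeing the data, it was -0.57 (adjusted p = 0.044). Col6a1 differed by -0.39 (adjusted p = 0.284) over both sexes.

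Fap differed by 0.48 (adjusted p = 0.192) over both sexes, Pdpn by -0.55 (adjusted p = 0.198) and Lum by 1.06 (adjusted p = 0.253). The Lum difference in female tumours was 1.49 ± 0.55 (SE; adjusted p = 0.777), and 0.65 without replicate 18. In male tumours Pdgfra differed by -0.66 (adjusted p = 0.521), with deleted tumours at 8.34, 9.19 and 8.85 and controls at 9.31, 9.25 and 9.81. In epithelial cells the smallest p belonged to Col6a1 at 0.40 (adjusted p = 0.722), Fbln1 at -0.38 (adjusted p = 0.734) and Dcn at -0.66 (adjusted p = 0.749).

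Groups without overlap were few. In male tumours Fbln1 was entirely higher in deleted mice, and Col6a1, Col6a2, Loxl1, Pdgfra and Pdpn were entirely lower, where 2.06% and 8.03% of all genes did so. In female tumours Fap and Lum were entirely higher and 0 genes entirely lower, against 5.2% and 10.4%. In epithelial cells Col14a1 was entirely higher and Fbln1 entirely lower, against 6.3% and 7.81%.

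**Figure D4:**
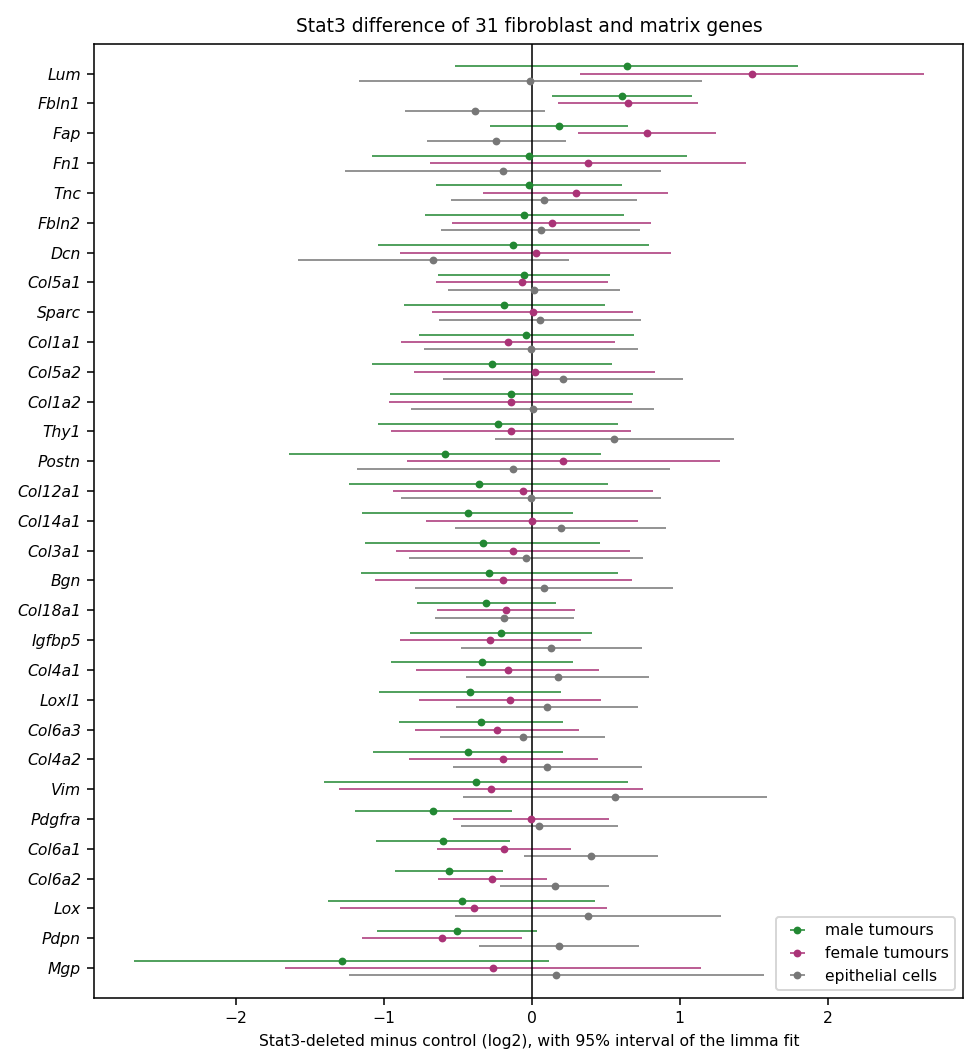
Stat3-deleted minus control log2 difference of the 31 genes, with the 95% interval of the limma fit, in tumours of males, tumours of females and the epithelium. No gene passed the adjusted threshold; 28 of 31 male differences and 20 of 31 female differences lie below 0, and the female count is 7 to 28 with replicate 15, 16, 17 or 18 left out.

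The test of whether the Stat3 effect differed between tumours and epithelial cells passed for 0 of 31 genes, where 0.0116% of all genes passed, and 5 of the 31 had an unadjusted p under 0.05 (9.38% of all genes). The smallest p were those of Fbln1 at 1.01 ± 0.27 (SE; adjusted p = 0.432), Col6a1 at -0.79 (adjusted p = 0.474) and Col6a2 at -0.57 (adjusted p = 0.503). Between the sexes the effect of deletion, female minus male, passed for 0 of 31 genes and for 0 of all genes (0.0%), with 0 of 31 and 0.936% of all genes at an unadjusted p under 0.05 (limma). Its median over the 31 was 0.19, and -0.18 without replicate 18.

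Male tumours read lower than female tumours for 28 of 31 genes, averaged over genotypes, with a median difference of -0.22 on the log2 scale, against -0.02 over all genes. Of all genes, 45.6% read higher in male tumours. With array weights 20 of 31 genes read lower in male tumours, with a median of -0.11. Without replicate 18 this was 16 of 31 genes and a median of -0.013. None passed, where 0.0231% of all genes did, and 2 of the 31 had an unadjusted p under 0.05 (6.13% of all genes). Pdpn had the smallest p of the 31 but also missed the threshold. Male tumours read 7.57, 7.54 and 7.38 in control and 7.0, 6.95 and 7.04 in deleted mice. Female tumours read 8.33, 8.26 and 9.05 in control and 7.53, 7.62 and 8.68 in deleted mice. Only female replicate 16 fell within the male range, and the difference, male minus female, was -1.0 ± 0.18 (SE; 95% interval -1.38 to -0.62, adjusted p = 0.149). The next were Tnc at -0.53 and Lox at -0.57 (both adjusted p = 0.749).

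**Figure D5:**
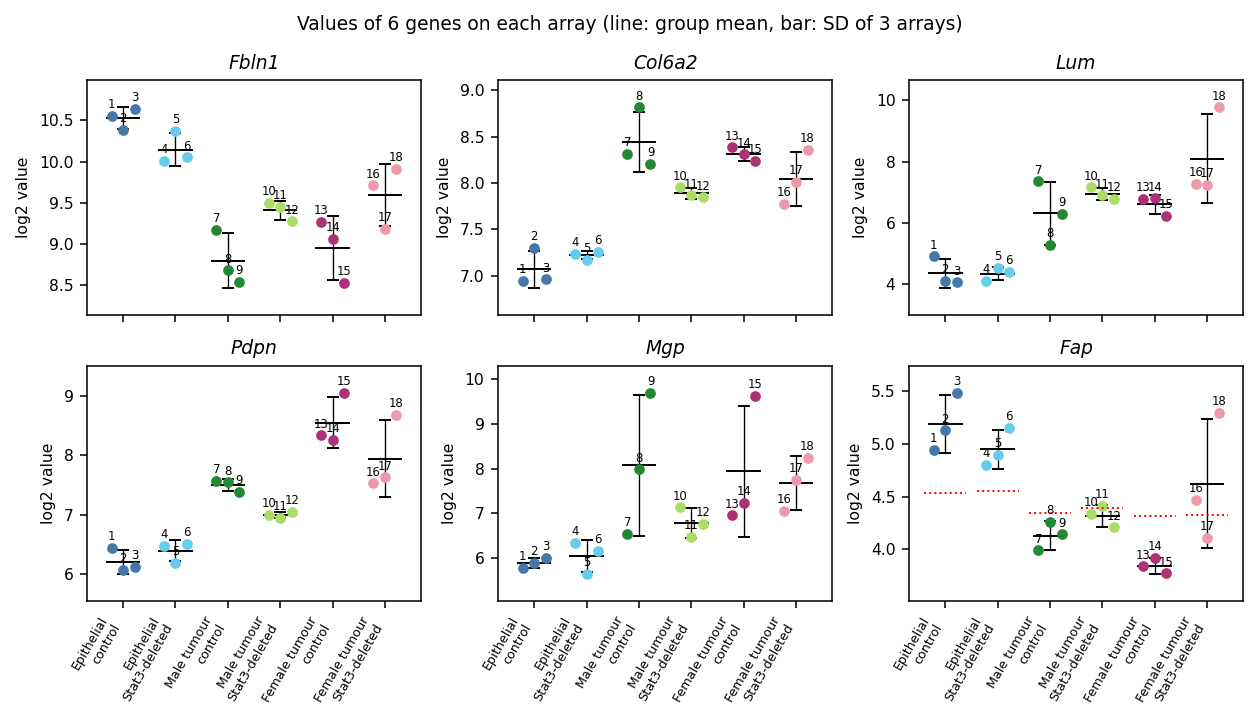
Log2 values of Fbln1, Col6a2, Lum, Pdpn, Mgp and Fap on each array by group, with group means and SD of 3 arrays (bars) and replicate numbers; dotted lines in the Fap panel mark the mean 25th percentile of the group's arrays. Fbln1 is lower in all tumours than in all epithelial arrays, Lum and Pdpn peak in replicates 18 and 15, and most tumour Fap values lie under the dotted line.

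Among the other matrix and fibroblast genes, Lama2, a laminin chain, and Ltbp4, which anchors latent TGF-beta, passed for Stat3 deletion over both sexes, at -0.57 ± 0.13 (SE; adjusted p = 0.0497) and -0.48 ± 0.11 (SE; adjusted p = 0.0445). Both passed in only 8 of 22 alternative settings, with adjusted p-values between 0.0157 and 0.18 for Lama2 and between 0.00168 and 0.142 for Ltbp4.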

How the data were processed

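The deposited values were used as they stand. Per the submitters' processing notes the authors processed the arrays with RMA, a method of background correction, quantile normalisation and probe set summary. Not given in the sources used here are its version, the array library and whether 1 run covered all arrays. The deposited log2 values ran from 1.33 to 14.6, with array medians of 5.88 to 6.07. Signal over background is unknown, so the number of arrays limits precision. RMA can shrink differences of dim genes.

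Of 35556 probe sets, 21789 had 1 gene symbol in the platform table, 1621 had several and 12146 were not listed. Genes above the array's 25th percentile in at least 3 arrays were tested (17316). A model with a mean per group was fitted to 18 arrays in limma 3.58.1 (R 4.3.3) with an intensity trend, leaving 12 residual degrees of freedom. Two-sided p-values received Benjamini-Hochberg adjustment within each of 9 comparisons at 0.05. The fit was tested on simulated data. Differences are deleted minus control, tumour minus epithelial, or male minus female. Tumours of both sexes were averaged with equal weight.

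The members and lists were chosen with earlier results of these data known. The named genes are the 31 members, the members with the largest differences or the smallest p in each comparison, and up to 4 genes with the smallest p of each other list; genes shown for single-array values beyond these were chosen after their values were seen. Alternatives covered normalisation, filters, array weights, fitted groups and left-out arrays.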

Additional observations from a re-analysis of the deposited data

Results flagged for a closer look

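The Fbln1 values of Stat3-deleted and control arrays did not overlap in epithelial cells or in male tumours, with opposite signs, though neither difference passed the test. The deleted minus control difference was -0.38 in epithelial cells (adjusted p = 0.734 in limma), where all 3 deleted arrays lay below all 3 controls, as for 7.81% of all genes. It was 0.61 in male tumours (adjusted p = 0.499), where all 3 deleted arrays lay above all 3 controls, as for 2.06% of all genes. The difference between these 2 effects was not tested on its own. Over tumours of both sexes the tissue difference in effect was 1.01 (adjusted p = 0.432 in limma).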

How the results depend on the processing

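No paired analysis was possible because each replicate number occurs only once among the 18 arrays. With array weights, members called for Stat3 deletion numbered 1 in epithelial cells, 3 in female tumours, 3 over both sexes and 5 for tumours minus epithelial cells, against 0 in each as reported. Calls over all 17316 genes rose as well, to 564 higher and 570 lower in epithelial cells, from 0 and 4. They were 272 and 473 in female tumours, from 3 and 15, and 467 and 947 over both sexes, from 50 and 73. For tumours minus epithelial cells they were 379 and 659, from 1 and 1. Leaving out single arrays gave 0 to 1 members called over both sexes. Leaving out tumours 9, 15 and 18, chosen after seeing the data, gave 2, both lower. Over all genes, single left-out arrays gave 24 to 108 higher and 40 to 157 lower. Without tumours 9, 15 and 18 these all-gene counts were 131 and 152. The median sex difference of the deletion effect ranged from -0.18 to 0.45 over left-out arrays. In the tissue comparison 28 of 29 calls in control mice and 21 of 26 in deleted mice held in every alternative that was run; Thy1 was the exception in control mice, and Col14a1, Col6a1, Lox, Fap and Pdpn in deleted mice. No called result changed sign, whereas the median Stat3 difference, which was not tested, changed sign with single left-out arrays in female tumours and in epithelial cells, and not in male tumours or over both sexes. Dim probe sets (Fap, Lum in epithelial cells) and 3 arrays per group limit what can be seen. In all 6 epithelial arrays 9 of the 31 members, Igfbp5, Tnc and Bgn among them, lay below the array median. Their tissue differences thus rest on low epithelial values.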
